A study of Mus musculus with 16 samples.

Results

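Wfs1 and Fibcd1, which mark pyramidal neurons of the hippocampal field CA1, and Rgs14, Pcp4, Amigo2, Necab2, Cacng5 and Map3k15, which mark those of field CA2, were followed in RNA sequencing libraries of the dentate gyrus. These 8 genes, 2 of CA1 and 6 of CA2, were taken by gene name from the 24421 gene names of the abundance tables, and all 8 were among the 17317 genes tested. The study compared 1-year-old male mice of the C57BL/6 strain, wild type (p16Ink4a +/+) or knockout for the cell cycle inhibitor p16Ink4a, that were kept sedentary or given a running wheel for 12 days, to find the genes that accompany p16 loss and running. The groups were p16 WT CTL (wild type, sedentary), p16 KO CTL (knockout, sedentary), p16 WT RUN (wild type, running) and p16 KO RUN (knockout, running), with 4 libraries each, numbered as replicates 1 to 16. Each library pooled the dentate gyri of 2 mice, and differences between single mice cannot be seen. The knockout was constitutive, came from a line made in the FVB strain and was bred into C57BL/6, and it spares the p19Arf product of the same locus.

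The hippocampus is a chain of fields in which granule neurons of the dentate gyrus project to CA3, CA3 to CA1, and CA2 lies as a narrow field between CA3 and CA1. Pyramidal neurons of CA1 and CA2 differ from granule neurons in the genes they use, and CA2 neurons are known for weak long-term potentiation at inputs from CA3 and for a role in social memory. A dentate gyrus dissected by hand can hold a strip of the neighbouring fields, and some of these genes are not confined to their field: Pcp4 is also made by dentate granule neurons, and Necab2 by some interneurons. In bulk tissue, fewer cells of a type and less RNA per cell cannot be told apart.

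The sequences just upstream of the transcription start are shown for Fibcd1, the CA1 gene with the widest spread, and for Pcp4, the CA2 gene that stood lowest in the library where Fibcd1 stood highest. RefSeq promoters on GRCm38.p6, the build that the mm10 coordinates of the tables use, were matched for 6 of the 8 genes, and Rgs14 and Map3k15 had no entry. Each stretch is the 250 bases before the start, 5′ to 3′ on the strand of the gene, with matches to the GC box (GGGCGG, either strand) in capitals. The Fibcd1 stretch is chr2:31846006-31846255 (minus strand) and that of Pcp4 is chr16:96467356-96467605 (plus strand).
Fibcd1: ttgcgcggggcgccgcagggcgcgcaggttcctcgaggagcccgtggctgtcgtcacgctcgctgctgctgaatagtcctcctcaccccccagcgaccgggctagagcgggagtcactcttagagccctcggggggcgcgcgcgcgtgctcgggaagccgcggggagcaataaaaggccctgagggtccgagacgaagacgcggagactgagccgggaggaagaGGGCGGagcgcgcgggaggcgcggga
Pcp4: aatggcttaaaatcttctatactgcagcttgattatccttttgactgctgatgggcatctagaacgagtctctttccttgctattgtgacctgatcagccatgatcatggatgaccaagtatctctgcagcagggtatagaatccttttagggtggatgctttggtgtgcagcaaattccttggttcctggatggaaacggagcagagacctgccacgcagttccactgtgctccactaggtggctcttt
Fibcd1 held 1 GC box and Pcp4 none, against at least 1 in 32.7% of 32851 promoters of this length. The share of G and C was 71.6% for Fibcd1 and 46.8% for Pcp4. Of the other motifs searched on both strands, the core of the cyclic AMP response element (TGACG, in 17.8% of all promoters) matched once in Fibcd1 and not in Pcp4. The E-box (CANNTG, 66.2%), the CCAAT box (CCAAT, 33.8%) and the TATA box (TATAAA, 12.4%) matched in neither stretch. These matches describe letters in the window and no binding was measured.

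The libraries were first set side by side. Levels are given in TPM, the share that a gene takes of all transcripts of its library, corrected for its length, and log2 fold changes were taken after each library was scaled to a common level and 0.1 TPM was added. A gene is called where its unadjusted p in a limma fit across all tested genes was under 0.05, the threshold of the study, and a call that also passed after Benjamini-Hochberg adjustment is named as such. Markers of granule neurons were present in every library: Prox1, the transcription factor that defines them, was at 58.1 to 187 TPM and C1ql2, a secreted synaptic protein, at 199 to 610 TPM. Cdkn2a, the locus of p16Ink4a, was at 0 to 0.586 TPM in wild-type and 0 to 0.413 TPM in knockout libraries, and its gene level also counts the p19Arf transcript that the knockout keeps, so it did not check the labels. Depth, taken as relative coverage, was 1.01 to 2.09 in the sedentary libraries of both genotypes and 0.686 to 0.994 in the running ones. Some libraries stood apart in nuclear RNAs: p16 WT CTL replicate 2 and p16 KO CTL replicates 6 and 7 were the 3 lowest in a list of 8 of them. Others stood apart in CA1 genes: p16 KO CTL replicate 8, p16 WT RUN replicate 10 and p16 KO RUN replicate 14 were the 3 highest in a list of 7 other CA1 markers, with p16 WT CTL replicate 2 close behind the last of them (mean standardised level 0.539 against 0.586). No sequencing batch is named in the sources used here.

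Wfs1 encodes wolframin, a membrane protein of the endoplasmic reticulum, and spans chr5:36966104-36988982 on the minus strand. It is a protein-coding gene with up to 8 exons in the GENCODE annotation of GRCm38. Its level was 29.0, 33.2, 35.3 and 34.3 TPM in p16 WT CTL, and 36.5, 34.0, 33.3 and 76.8 TPM in p16 KO CTL. It was 31.9, 44.0, 34.6 and 31.3 TPM in p16 WT RUN, and 32.8, 57.8, 30.2 and 36.1 TPM in p16 KO RUN. Most libraries lay close together and 3 stood above them, which were p16 KO CTL replicate 8, p16 KO RUN replicate 14 and p16 WT RUN replicate 10. The group means were 32.9 ± 2.78, 45.1 ± 21.2, 35.5 ± 5.89 and 39.2 ± 12.7 TPM (SD, n = 4 each), in the same order of groups, and no neighbours in the order of means differed by more than the larger SD.

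Wfs1 was called in none of the comparisons. In Set B (sedentary knockout against sedentary wild type) its log2 fold change was 0.42 (SE 0.24, unadjusted p = 0.114 by limma), and the scaled libraries did not overlap, with an exact two-sided permutation p of 0.0286, the smallest that 4 against 4 libraries can give. As deposited they did overlap, since the lowest p16 KO CTL library was at 33.3 TPM and the highest p16 WT CTL library at 35.3 TPM. Without p16 KO CTL replicate 8 the log2 fold change in Set B was 0.14. In Set A (running against sedentary knockout mice) it was -0.22 (SE 0.29, exact permutation p = 0.457), and it was 0.063 without that library.

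Fibcd1 encodes a transmembrane receptor that binds acetylated sugars of the extracellular matrix, and spans chr2:31813290-31846005 on the minus strand, protein-coding with up to 7 exons. Its level was 8.78, 18.6, 12.2 and 23.1 TPM in p16 WT CTL, and 27.1, 16.8, 10.3 and 63.9 TPM in p16 KO CTL. It was 20.5, 39.2, 23.8 and 25.3 TPM in p16 WT RUN, and 20.1, 21.1, 14.9 and 16.4 TPM in p16 KO RUN. The highest libraries were again p16 KO CTL replicate 8 and p16 WT RUN replicate 10, whereas p16 KO RUN replicate 14 was in the range of the rest. Fibcd1 had the widest spread of the 8 genes, with a coefficient of variation of 58.4% over the 16 libraries against 32.3% for Wfs1.

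In falling order, the means of Fibcd1 were 29.5 ± 23.9 TPM (p16 KO CTL), 27.2 ± 8.23 TPM (p16 WT RUN), then 18.1 ± 2.95 TPM for running knockout and 15.7 ± 6.39 TPM for sedentary wild-type mice (SD, n = 4 each), of which only the second step was larger than the larger SD. It rose in Set C (running against sedentary wild-type mice), by a log2 fold change of 0.83 (SE 0.31, unadjusted p = 0.0242 by limma, exact permutation p = 0.0571), although the libraries overlapped. This call was lost without p16 WT CTL replicate 1, p16 WT CTL replicate 3 or p16 WT RUN replicate 10, with values from 0.59 to 1.03 over the 8 libraries left out in turn. It was lower in Set E (running knockout against running wild type), with a log2 fold change of -0.54 (SE 0.20, p = 0.0246 by limma, exact permutation p = 0.0571), and it was -0.35, still called, without that library. The Set E call was lost without p16 KO RUN replicate 15 or 16, with no filter on low values and with all 16 libraries in one fit. The genotype by running interaction, which is Set A minus Set C, was called at -1.28 (SE 0.60, adjusted p = 0.797 by limma over 16 libraries), and it was -0.80 and not called without p16 KO CTL replicate 8. In Sets A and B, which hold that library, the log2 fold changes of -0.45 (SE 0.45, exact permutation p = 0.543) and 0.73 (SE 0.51, exact permutation p = 0.286) were not called, and without it they were 0.031 and 0.25. Without p16 KO CTL replicate 7 the Set B value was 1.10 and was called. Without the 3 libraries low in nuclear RNA, on the other hand, Fibcd1 was called in both, with log2 fold changes of -1.23 in Set A and 1.65 in Set B, where p16 KO CTL is left with 2 libraries, replicate 8 among them.

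**Figure D1:**
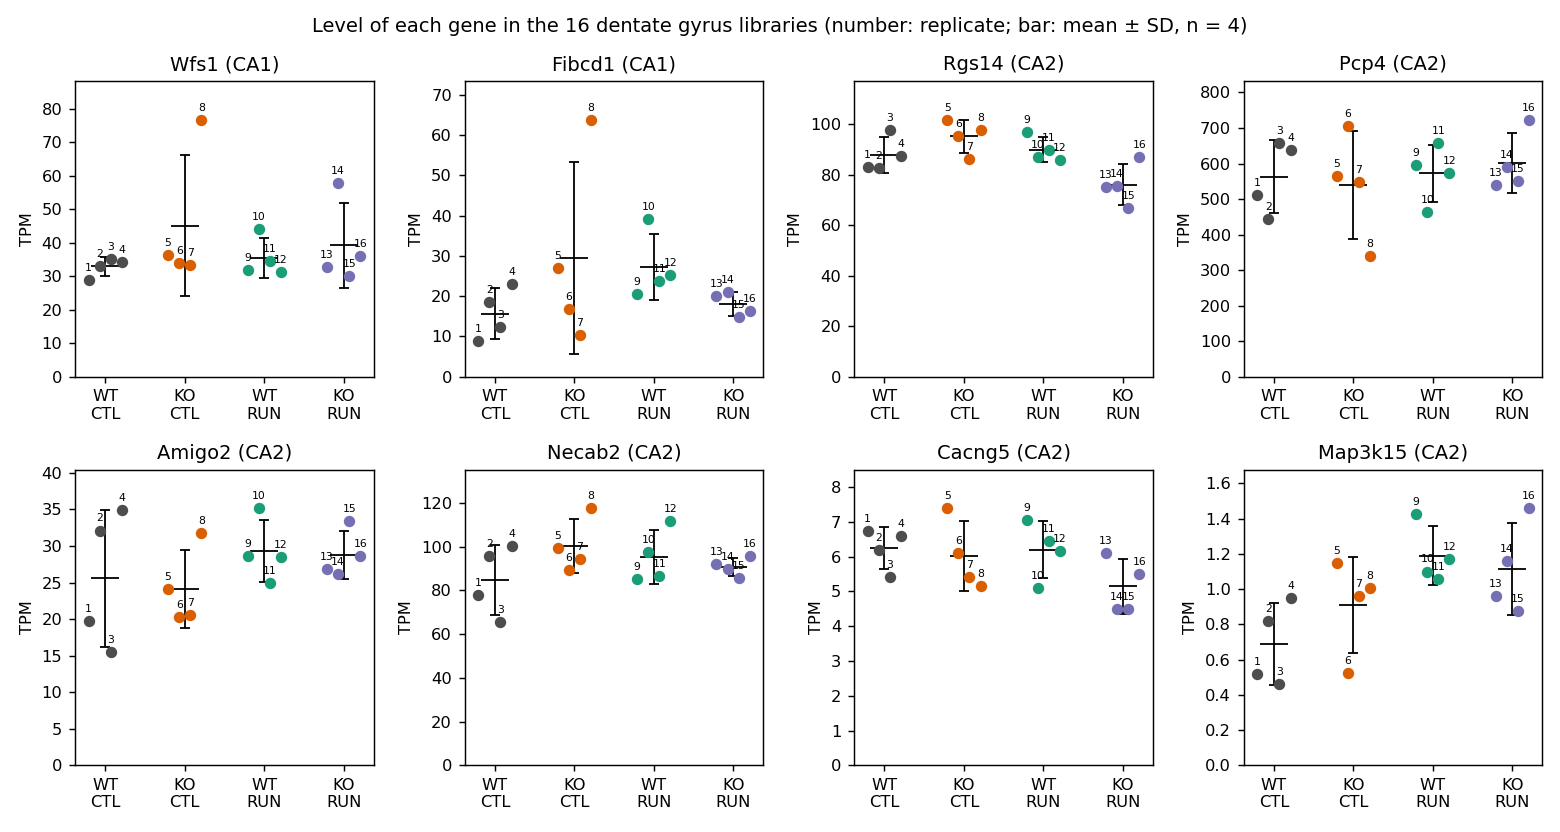
TPM of the 8 genes (vertical axes, each from 0) in the 4 groups (horizontal axes), 1 point for each library with its replicate number and a bar for the mean ± SD of 4 libraries. Replicate 8 stands alone at 76.8 TPM in Wfs1 and 63.9 TPM in Fibcd1 and is the lowest in Pcp4 at 339 TPM, and the p16 KO RUN libraries are the lowest group in Rgs14.

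The other CA1 markers were high in some of the same libraries. All 7 of them, among them Mpped1, Spink8, Pou3f1, Nov, Man1a and Neurod6, had their highest level of the 16 libraries in p16 KO CTL replicate 8, and 6 of the 7 were among the 3 highest in p16 WT RUN replicate 10. After scaling, Nov, a secreted matrix protein, was 7.87 times the median of the other 15 libraries in replicate 8, Pou3f1, a POU transcription factor, 6.35 times, and Mpped1 3.07 times. Wfs1 was 2.3 times and Fibcd1 3.32 times that median there, Pcp4 0.599 times and Rgs14 1.16 times. In the same library the granule neuron genes Prox1, Dsp and C1ql2 were at 0.436, 0.415 and 0.537 times the median, and 4 of 6 oligodendrocyte markers had their highest level of the 16 libraries. The summed level of the 10 granule neuron markers was 474 TPM in replicate 8 and 580 to 1264 TPM in the other libraries. The markers did not all follow the CA1 pair: Neurod6, a transcription factor of pyramidal neurons and the most abundant of them, was at 301 TPM in p16 WT CTL replicate 1, above its level in most libraries, where Wfs1 and Fibcd1 were at their lowest. The part of neighbouring tissue in the levels of the 8 genes was not tested beyond the values given here.

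A mean standardised log2 level of the 7 other CA1 markers was set against each of the 8 genes over the 16 libraries, as part of 56 relations with 7 marker lists that were chosen after the data were seen. Wfs1 rose with it (Pearson r = 0.79, permutation p = 0.00196, adjusted p = 0.0141; Spearman rho = 0.55, permutation p = 0.0313, adjusted p = 0.125), and without the 2 libraries farthest from the median of the CA1 level r was 0.42. Fibcd1 gave r = 0.71 (permutation p = 0.00321, adjusted p = 0.02; rho = 0.45, permutation p = 0.0829, adjusted p = 0.244) and r = 0.21 without those libraries. Both relations rest on these few libraries. Taken as deviations from the group means, r was 0.80 for Wfs1 and 0.69 for Fibcd1. The CA1 pair also rose with 12 other CA2 markers. Wfs1 gave r = 0.71 with them (permutation p = 0.00041, adjusted p = 0.00765; rho = 0.59, permutation p = 0.0188, adjusted p = 0.105), and 0.66 without the 2 libraries farthest from the median of that list. Fibcd1 gave r = 0.62 (permutation p = 0.00908, adjusted p = 0.0391; rho = 0.46, permutation p = 0.0762, adjusted p = 0.237), and 0.36 without those 2.

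Pcp4 ran the other way against the 7 other CA1 markers, with r = -0.82 (permutation p = 0.00031, adjusted p = 0.00765; rho = -0.65, permutation p = 0.00811, adjusted p = 0.0908), r = -0.52 without the 2 farthest libraries and r = -0.88 within groups. It rose with the granule neuron markers (r = 0.74, permutation p = 0.00131, adjusted p = 0.0141; rho = 0.56, permutation p = 0.0261, adjusted p = 0.122; r = 0.42 without the 2 farthest libraries) and fell with the CA3 markers (r = -0.75, permutation p = 0.00035, adjusted p = 0.00765; rho = -0.83, permutation p = 0.00017, adjusted p = 0.00952; r = -0.72 without the 2 farthest libraries). Pcp4 also fell with the oligodendrocyte markers (r = -0.71, permutation p = 0.00202, adjusted p = 0.0141; rho = -0.66, permutation p = 0.00715, adjusted p = 0.0908; r = -0.54 without the 2 farthest libraries). With the other CA2 markers its r was negative too and did not pass the correction (r = -0.59, permutation p = 0.0147, adjusted p = 0.0547; rho = -0.48, permutation p = 0.0627, adjusted p = 0.206; r = -0.35 without the 2 farthest libraries). Necab2 rose with the interneuron markers (r = 0.72, permutation p = 0.00158, adjusted p = 0.0141; rho = 0.62, permutation p = 0.0121, adjusted p = 0.105; r = 0.53 without the 2 farthest libraries). It rose likewise with the 12 other CA2 markers (r = 0.73, permutation p = 0.00096, adjusted p = 0.0134; rho = 0.71, permutation p = 0.00232, adjusted p = 0.065; r = 0.53 without the 2 farthest libraries). Its r was 0.66 with the other CA1 markers and -0.65 with the granule neuron markers (permutation test, adjusted p = 0.0382 for each), so the relation was not particular to interneuron markers. Rgs14 passed the correction with none of the 7 lists, and its r with the other CA1 markers was 0.23 (permutation p = 0.379, adjusted p = 0.506; rho = 0.24, permutation p = 0.371, adjusted p = 0.577; r = -0.03 without the 2 farthest libraries). All values of a library share its scaling and its depth.

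**Figure D2:**
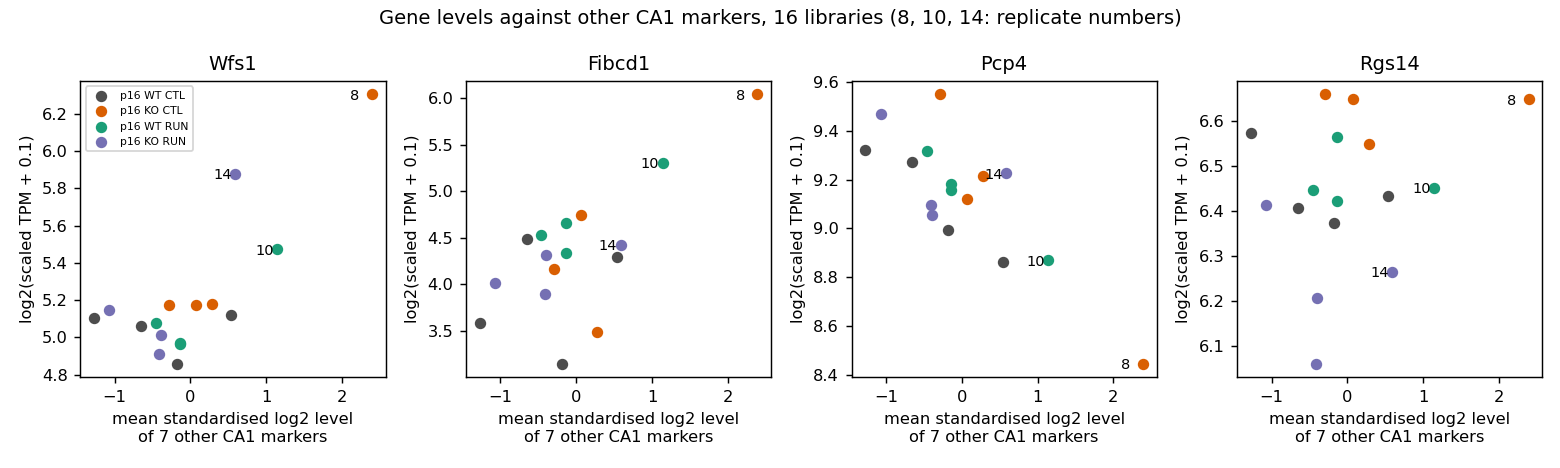
Log2(scaled TPM + 0.1) of Wfs1, Fibcd1, Pcp4 and Rgs14 (vertical axes) against the mean standardised log2 level of 7 other CA1 markers (horizontal axes), 1 point for each of 16 libraries, coloured by group, with replicates 8, 10 and 14 numbered. Wfs1 and Fibcd1 rise with the CA1 level (r = 0.79 and 0.71), Pcp4 falls (r = -0.82), and replicate 8 lies far to the right in all 4 panels.

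Of the CA2 genes, Rgs14 was called in the most comparisons and was lowest in p16 KO RUN. It encodes a scaffold that speeds the hydrolysis of GTP by G protein alpha subunits and limits synaptic plasticity in CA2 neurons, and spans chr13:55369732-55384687 on the plus strand, protein-coding with up to 15 exons. The study had itself picked Rgs14 from these libraries, so its tests here are no independent evidence. Its level was 83.0, 82.6, 97.8 and 87.4 TPM in p16 WT CTL, and 102, 95.3, 86.1 and 97.6 TPM in p16 KO CTL. It was 96.8, 86.9, 89.8 and 85.9 TPM in p16 WT RUN, and 74.9, 75.7, 67.0 and 86.8 TPM in p16 KO RUN. All p16 KO RUN libraries but replicate 16 were below every library of the other groups, and replicate 16 was within the range of the other groups. The means were 95.2 ± 6.61 TPM for sedentary knockout, 89.9 ± 4.93 TPM for running wild-type, 87.7 ± 7.10 TPM for sedentary wild-type and 76.1 ± 8.16 TPM for running knockout mice (SD, n = 4 each), and in that order only the last step was larger than the larger SD.

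Rgs14 fell in Set A, with a log2 fold change of -0.39 (SE 0.075, adjusted p = 0.114 by limma). The scaled libraries of the 2 groups did not overlap in Set A (exact permutation p = 0.0286), nor in Set E, where the log2 fold change was -0.24 (SE 0.073, p = 0.00989 by limma, exact permutation p = 0.0286). As deposited, without scaling, the ranges touched in both, since p16 KO RUN replicate 16 at 86.8 TPM was above the lowest library of p16 KO CTL and of p16 WT RUN. Rgs14 rose in Set B by 0.18 (SE 0.061, p = 0.0161 by limma, exact permutation p = 0.0571), where the libraries overlapped, and this call was lost with TPM as deposited (0.12). In Set D (running knockout against sedentary wild type) it was lower by a log2 fold change of -0.21 (SE 0.079, exact permutation p = 0.0857), and that call was lost when p16 WT CTL replicate 3, p16 KO RUN replicate 13 or p16 KO RUN replicate 15 was left out. In Set C its log2 fold change was 0.025 (SE 0.060, exact permutation p = 0.543) and was not called. The interaction itself was called at -0.42 (SE 0.096, adjusted p = 0.797 by limma). Over both genotypes running gave a called -0.18 (SE 0.048, adjusted p = 0.0833 by limma). With the other CA1 markers as a covariate the log2 fold change in Set A was -0.40 and the interaction -0.45, and without the 3 libraries low in nuclear RNA they were -0.41 and -0.43, each of them called.

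Pcp4, a small protein that binds calmodulin, spans chr16:96467606-96525793 on the plus strand and had the highest level of the 8 genes, at 569 TPM on average, above 98.6% of the tested genes. It was at 511, 444, 657 and 638 TPM in p16 WT CTL and at 565, 706, 547 and 339 TPM in p16 KO CTL. It was at 595, 464, 657 and 573 TPM in p16 WT RUN and at 540, 590, 549 and 724 TPM in p16 KO RUN. The groups overlapped in every set, and the lowest library was the one with the highest CA1 markers. Pcp4 was called in no comparison, with log2 fold changes of 0.13 (SE 0.21, exact permutation p = 0.771) in Set A and -0.030 (SE 0.22, exact permutation p = 0.943) in Set B. Both turned sign without p16 KO CTL replicate 8, to -0.085 and 0.18, and with the other CA1 markers as a covariate Set B was 0.31 and was called.

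Necab2, a neuronal calcium-binding protein, spans chr8:119446719-119472635 on the plus strand. Its level was 77.7, 95.8, 65.5 and 100.1 TPM in p16 WT CTL, and 99.5, 89.5, 94.3 and 117.5 TPM in p16 KO CTL. It was 85.3, 97.6, 86.7 and 112 TPM in p16 WT RUN, and 92.1, 89.7, 85.6 and 95.5 TPM in p16 KO RUN. The p16 KO RUN libraries lay closest together (90.7 ± 4.17 TPM, SD, n = 4) and p16 KO CTL was the highest on average (100.2 ± 12.2 TPM). Necab2 was lower in Set A, with a log2 fold change of -0.20 (SE 0.078, unadjusted p = 0.0287 by limma, exact permutation p = 0.0286), and the scaled libraries did not overlap while the deposited values did. That call was lost without p16 KO CTL replicate 8 (-0.13), without p16 KO RUN replicate 13 or 15, with TPM as deposited (-0.14), and in 5 other of the 13 further settings, among them all 16 libraries in one fit and the CA1 markers as a covariate. In Set B the log2 fold change was 0.31 (SE 0.15, exact permutation p = 0.171) and was not called. It was called without p16 WT CTL replicate 2 or 4 and with all 16 libraries in one fit. The Set B value ranged from 0.186 to 0.403 over the libraries left out in turn and from 0.14 to 0.474 over the other settings.

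Amigo2, an adhesion protein of the cell surface, spans chr15:97244074-97247287 on the minus strand. It ranged from 15.5 to 34.9 TPM in p16 WT CTL and from 20.3 to 31.7 TPM in p16 KO CTL. The running libraries were at 25.0 to 35.1 TPM in wild-type and at 26.1 to 33.4 TPM in knockout mice. The sedentary wild-type libraries thus spanned the ranges of all other groups but for the highest library of p16 WT RUN. Amigo2 was called in no comparison. In Set A its log2 fold change was 0.20 (SE 0.14, exact permutation p = 0.257), and it was 0.33 and called without p16 KO CTL replicate 8. The lowest value was 0.125 over the libraries left out in turn and 0.0281 over the other settings. Of those settings, leaving out the 3 libraries of high CA1 markers and the CA1 covariate gave a call.

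Cacng5, an auxiliary subunit of AMPA receptors, spans chr11:107874605-107915055 on the minus strand. It was at 6.74, 6.20, 5.41 and 6.60 TPM in p16 WT CTL and at 7.39, 6.11, 5.41 and 5.14 TPM in p16 KO CTL. It was at 7.06, 5.10, 6.45 and 6.16 TPM in p16 WT RUN and at 6.11, 4.48, 4.50 and 5.50 TPM in p16 KO RUN. The p16 KO RUN group held the 2 lowest libraries and had the lowest mean (5.15 ± 0.796 TPM, SD, n = 4), but it overlapped all other groups. Its log2 fold changes of -0.28 in Set A (SE 0.15, exact permutation p = 0.143), -0.28 in Set D (SE 0.14, exact p = 0.0857) and -0.26 in Set E (SE 0.14, exact p = 0.143) were not called. Set A was called without p16 KO CTL replicate 8 (-0.36) or p16 KO RUN replicate 13, Set D without p16 WT CTL replicate 3 or p16 KO RUN replicate 13, and Set E without p16 WT RUN replicate 10 or p16 KO RUN replicate 13.

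Map3k15, a kinase at the head of a stress-activated MAP kinase cascade, lies on chrX:159988433-160123351 on the plus strand and was the lowest of the 8 genes. It was at 0.520, 0.820, 0.464 and 0.952 TPM in p16 WT CTL and at 1.15, 0.522, 0.962 and 1.01 TPM in p16 KO CTL. It was at 1.43, 1.10, 1.06 and 1.17 TPM in p16 WT RUN and at 0.959, 1.16, 0.876 and 1.46 TPM in p16 KO RUN. In wild-type mice every running library was above every sedentary library. Map3k15 rose in Set C by a log2 fold change of 0.74 (SE 0.27, unadjusted p = 0.0216 by limma, exact permutation p = 0.0286), in Set D by 0.64 (SE 0.28, exact permutation p = 0.0571) and over both genotypes with running by 0.48 (SE 0.19, adjusted p = 0.203 by limma). The Set C call was lost when p16 WT CTL replicate 1, p16 WT CTL replicate 3 or p16 WT RUN replicate 9 was left out. The Set D call was kept in 3 of 8 fits that leave out 1 library (lost without p16 WT CTL replicate 1 or 3 or p16 KO RUN replicate 13, 14 or 16) and in 7 of 12 other settings, and the call for running was lost with quantile normalization. Its coverage was 1.20 to 5.15 per base, against 852 to 2931 for Pcp4, so its level rests on few reads, and the tables give no read counts from which a counting error could be had.

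Set side by side, few of the 8 genes were called in any set and the background of calls was uneven. In Set A 2 of 8 were called, both lower, against 18.5% of all genes tested. In Set B 1 of 8 was called, against 6.69%, in Set C 2 of 8, against 4.81%, in Set D 2 of 8, against 8.63%, and in Set E 2 of 8, against 3.87%. Running in both genotypes called 2 of 8, against 17.9%, and the interaction 2 of 8, against 5.48%. Genotype in both treatments called 0 of 8 by limma at an unadjusted p of 0.05, against 7.12%. With so few genes, a share of 2 in 8 in Set A is near its background. The background itself moved by over 1.5 times with single libraries. Leaving out p16 WT CTL replicate 2 raised it to 17.5% in Set B, 15.7% for genotype and 13.7% for the interaction, and leaving out p16 KO CTL replicate 5 raised these to 13.5%, 13.7% and 11.4%. Leaving out p16 KO CTL replicate 7 lowered it to 3.22% in Set B, 4.16% for genotype and 11.7% in Set A, and without replicate 6 of that group it was 3.96% in Set B and 11.9% in Set A. Without p16 WT CTL replicate 1, 3 or 4 it was 3.51%, 4.11% or 4.22% in Set B, and without replicate 3 it was 3.57% for the interaction. Of the running libraries, p16 WT RUN replicate 10 lowered it to 3.07% in Set C when left out, and replicate 12 raised it to 6.05% in Set E.

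After Benjamini-Hochberg adjustment over all 17317 genes, limma called 0 of the 8 at an adjusted p of 0.05 in any of the 8 comparisons. The share of all genes called in this way was 0.0173% in Set A, 0.00577% in Set E, 0.751% for running in both genotypes and 0% in Sets B, C and D, for genotype in both treatments and for the interaction. Scaled libraries without overlap between groups were seen for 2 of 8 genes in Set A (Rgs14 and Necab2; 10.4% of all genes), 1 of 8 in Set B (Wfs1; 2.7%), 1 of 8 in Set C (Map3k15; 3.34%), 0 of 8 in Set D (5.68%) and 1 of 8 in Set E (Rgs14; 2.46%). The median log2 fold change of the 8 genes for Sets A to E, in turn, was -0.21, 0.25, 0.13, 0.16 and -0.076, while that of all tested genes was 0.018, -0.011, 0.0039, 0.0038 and 0.0032. The sets share groups of libraries, so they are not separate experiments. Of the 24 steps between neighbouring groups in the order of means, 2 were larger than the larger SD, that of Fibcd1 from p16 WT RUN to p16 KO RUN and that of Rgs14 from p16 WT CTL to p16 KO RUN.

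**Figure D3:**
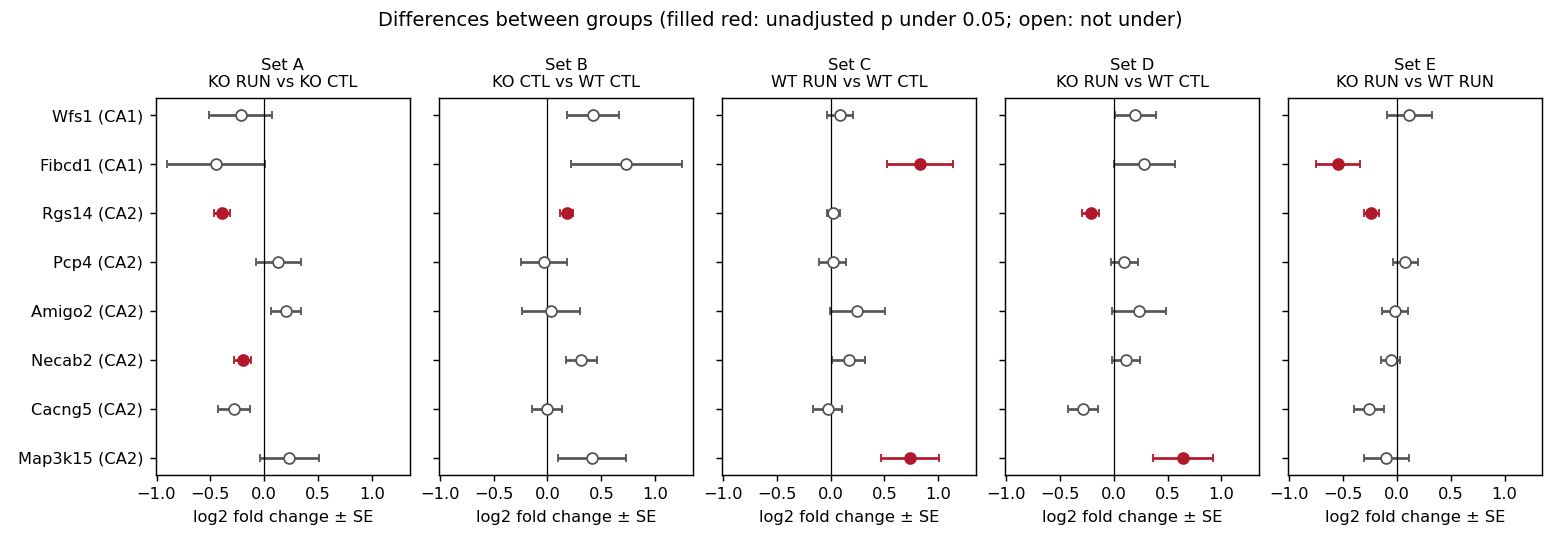
Log2 fold change ± SE (horizontal axes) of the 8 genes (rows) in Sets A to E, from limma fits on the 8 libraries of each set, with filled red points for an unadjusted p under 0.05. Rgs14 is below 0 in Sets A, D and E and above 0 in Set B, Fibcd1 has the longest error bars in Sets A to C, and 0 of the 8 passed the adjusted threshold.

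No pair of the 8 genes passed the correction across libraries. Among the 28 pairs of the 8 genes, 8 had an unadjusted permutation p under 0.05 by Pearson r and 0 passed after adjustment over the 28. Wfs1 and Fibcd1 had the highest Pearson r over the 16 libraries, though not the highest rho, with r = 0.69 (permutation p = 0.00562, adjusted p = 0.075; rho = 0.37, permutation p = 0.155, adjusted p = 0.504), r = 0.54 without the 2 libraries farthest from the Wfs1 median and r = 0.75 within groups. Amigo2 and Necab2 gave r = 0.65 (permutation p = 0.00759, adjusted p = 0.075; rho = 0.48, permutation p = 0.0633, adjusted p = 0.36), r = 0.19 without the 2 farthest libraries, p16 WT CTL replicates 1 and 3, and r = 0.82 within groups, the highest within-group value of the 28 pairs. Fibcd1 and Necab2, a CA1 and a CA2 gene, gave r = 0.66 (permutation p = 0.00804, adjusted p = 0.075; rho = 0.50, permutation p = 0.0511, adjusted p = 0.36), with r = 0.43 without the 2 farthest libraries and r = 0.59 within groups. Map3k15 gave r = 0.62 with Amigo2 (permutation p = 0.0107, adjusted p = 0.0751; rho = 0.29, permutation p = 0.268, adjusted p = 0.504; r = 0.15 without the 2 farthest libraries) and r = 0.54 with Necab2 (permutation p = 0.0318, adjusted p = 0.127; rho = 0.30, permutation p = 0.262, adjusted p = 0.504; r = 0.29 without them), and within groups these were 0.59 and 0.60. Rgs14 and Cacng5 gave r = 0.50 (permutation p = 0.0474, adjusted p = 0.157; rho = 0.33, permutation p = 0.214, adjusted p = 0.504; r = 0.35 without the 2 farthest libraries) and r = 0.10 within groups. Fibcd1 gave r = 0.61 with Amigo2 (permutation p = 0.0143, adjusted p = 0.0799; rho = 0.51, permutation p = 0.0457, adjusted p = 0.36; r = 0.54 without the 2 farthest libraries) and r = -0.57 with Pcp4 (permutation p = 0.0255, adjusted p = 0.119; rho = -0.29, permutation p = 0.271, adjusted p = 0.504; r = -0.44 without them), the one negative relation of the 8. Rgs14 and Pcp4, both CA2 genes, gave r = -0.00 (permutation p = 0.988, adjusted p = 0.988; rho = 0.16, permutation p = 0.563, adjusted p = 0.789; r = -0.10 without the 2 farthest libraries).

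**Figure D4:**
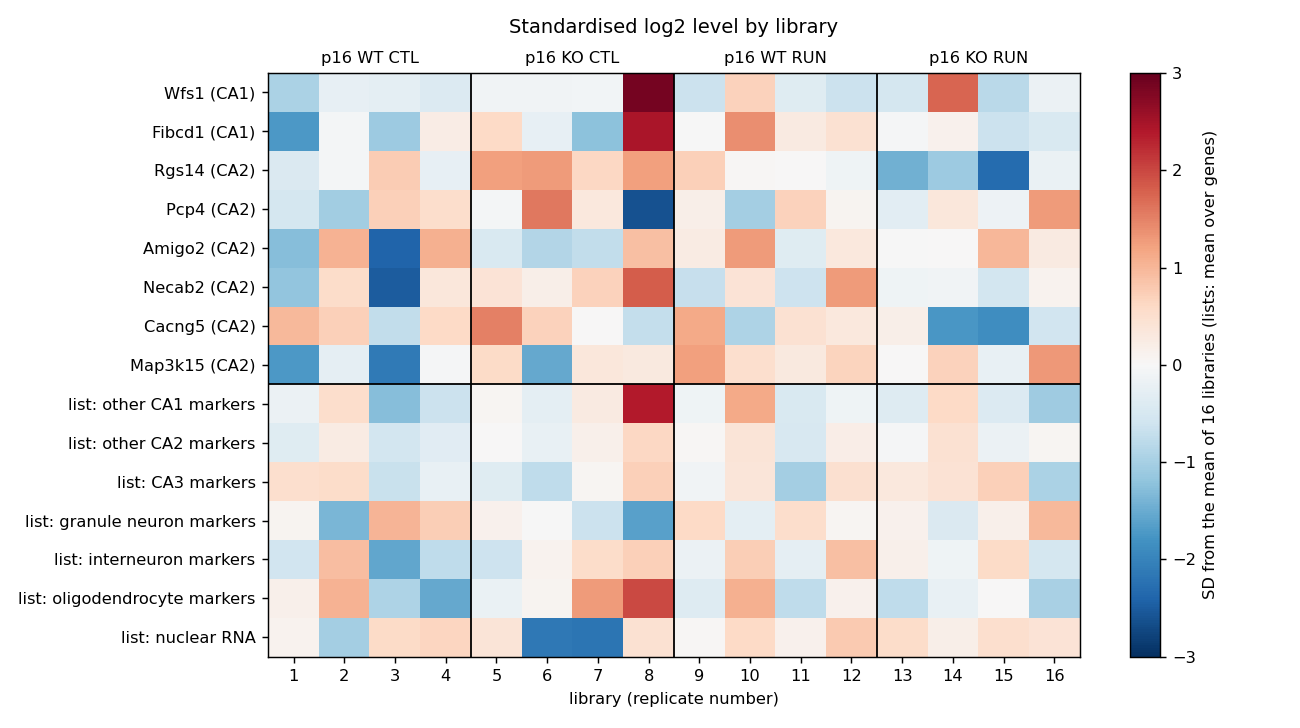
Standardised log2 level of the 8 genes and the mean of 7 marker lists (rows) in the 16 libraries (columns, by replicate number and group), in SD from the mean of the 16 libraries, red above and blue below. The column of replicate 8 is red in Wfs1, Fibcd1 and the other CA1 markers and blue in Pcp4 and the granule neuron markers, while Rgs14 is darkest blue in p16 KO RUN replicates 13 to 15.

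A wider list of 12 other CA2 markers, all of them tested, was examined beside the 6 CA2 genes. Avpr1b, the vasopressin receptor that defines CA2 neurons, was at 0 to 0.282 TPM and so close to 0 in every library. In Set A 2 of the 12 were called higher, Ptpn5, a striatum-enriched tyrosine phosphatase (0.36, adjusted p = 0.158 by limma), and Nr3c2, the mineralocorticoid receptor (0.31, adjusted p = 0.242), and 2 lower, Gpr12, an orphan receptor (-0.30, adjusted p = 0.172), and Avpr1b (-1.02, adjusted p = 0.231). In Set B 0 of the 12 were called by limma at an unadjusted p of 0.05, beside 6.69% of all genes. In Set C 1 was called, Nr3c2 (0.33, adjusted p = 0.937 by limma), and in Set E 1, Tgfb1i1 (0.52, adjusted p = 1 by limma). In Set D 2 were higher, Ptpn5 (0.28) and Tgfb1i1 (0.49), and 2 lower, Gpr12 (-0.37) and Ntf3 (-0.34). The 4 of 12 in Set A stand beside 18.5% of all genes and the 4 of 12 in Set D beside 8.63%, and the 1 of 12 in Set C and in Set E beside 4.81% and 3.87%. The list thus held genes going in both directions, and its median log2 fold change was -0.071 in Set A and 0.15 in Set C. Its summed level was 400.4 to 460 TPM in running knockout and 403 to 454 TPM in running wild-type libraries, 346 to 398 in p16 KO CTL and 376 to 398 in p16 WT CTL. As deposited, every running library was thus above every sedentary one in this sum. After scaling the ranges overlapped, at 394 to 467 TPM in running knockout, 391 to 452 TPM in running wild-type, 367 to 408 TPM in sedentary knockout and 379 to 394 TPM in sedentary wild-type libraries. In this list Nr3c2 (median 120 TPM) and Ptpn5 (102 TPM) had the highest levels.

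Of the 7 other CA1 markers, all tested, 1 was called in Set A (Pou3f1, -1.31, adjusted p = 0.241 by limma), 1 in Set B (Pou3f1, 1.53, adjusted p = 0.625) and 1 in Set E (Nov, -0.79, adjusted p = 1), and 0 in Sets C and D by limma at an unadjusted p of 0.05. The study had also picked Nov from these libraries, so its call here is no independent evidence. For Sets A to E, in turn, the share of all genes called was 18.5%, 6.69%, 4.81%, 8.63% and 3.87%. Their summed level was 144 to 343 TPM in running knockout and 189 to 366 TPM in running wild-type libraries, 227 to 566 in p16 KO CTL and 180 to 400.4 in p16 WT CTL, and the groups overlapped. In Set A, where 18.5% of all genes were called, genes of other lists were called beside Rgs14 and Necab2: 4 of 6 oligodendrocyte markers were lower (among them Mbp, Cnp and Mobp; median of the list -0.40), 2 of 6 astrocyte and 2 of 6 microglia markers were lower, 2 of 10 granule neuron markers were higher (Pdzd2 and Lct), and 2 of 8 nuclear RNAs were higher (Malat1 and Kcnq1ot1; median of the list 1.06). Of 6 subiculum and cortex markers, 2 were called higher and 2 lower in Set A (median of the list 0.035). The summed oligodendrocyte markers were at 1458 to 2426 TPM in p16 KO CTL and at 1132 to 1484 TPM in p16 KO RUN. Their part in the Set A values of Rgs14 and Necab2 was not tested.

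The genes most like the CA1 pair were looked for among all tested genes outside the 8, by Pearson r over 16 libraries with the mean standardised profile of Wfs1 and Fibcd1, as a description without a test. They were Mpped1 (r = 0.92), Foxp1 (0.90), 2410004P03Rik (0.89), Pex5l (0.88) and Ptpru (0.88). Without the 2 libraries farthest from the median of the profile, p16 KO CTL replicate 8 and p16 WT RUN replicate 10, these r were 0.72, 0.66, 0.86, 0.53 and 0.64. Foxp1, a forkhead transcription factor, ranged from 17.5 to 30.3 TPM, Ptpru, a receptor tyrosine phosphatase, from 3.40 to 17.2 TPM, and Pex5l, a partner of HCN channels, from 76.6 to 126 TPM. Wfs1 itself ranked 94 of 17316 genes in likeness to Fibcd1, and Fibcd1 ranked 71 in likeness to Wfs1.

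The genes most like the mean profile of the 6 CA2 genes were Crygn (r = 0.85), Lancl3 (0.84), Yars2 (0.83), Pde11a (0.75) and Ech1 (0.75), and without the 2 farthest libraries, p16 WT CTL replicates 3 and 1, r was 0.71, 0.69, 0.84, 0.62 and 0.46. Crygn, a lens crystallin, was at 0 to 0.750 TPM, Pde11a, a cyclic nucleotide phosphodiesterase, at 1.46 to 6.79 TPM, and Yars2, the mitochondrial tyrosyl-tRNA synthetase, at 19.5 to 26.0 TPM. Against the mean of the other 5 CA2 genes, Necab2 gave r = 0.45 and Map3k15 r = 0.40, while Cacng5 (0.16), Rgs14 (0.11) and Amigo2 (0.11) were near 0 and Pcp4 was negative (-0.30). Necab2 ranked 427 and Pcp4 14987 of 17312 genes by that measure.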

How the data were processed

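Total RNA of 16 dentate gyrus pools was made into libraries with an mRNA kit and sequenced, with groups and replicate numbers as labelled. Per the study's methods and processing notes, reads were demultiplexed with bcl2fastq 2.20, masked with Cutadapt 1.11, trimmed with ERNE, aligned to mm10 with STAR and quantified with StringTie. The deposited TPM values are StringTie abundances per gene name, corrected for length. The deposited FPKM values come from the same run and served as an alternative. The deposited coverage values, mean signal per base, gave relative depth only. Since no read counts were used here, the count test of the study was replaced by limma 3.58.1 (R 4.3.3) with a variance trend.

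Entries sharing a gene name were summed, libraries were scaled by the median ratio over 13226 genes with at least 1 TPM throughout, and the test used log2(scaled TPM + 0.1) of genes averaging 0.1 TPM or more. Sets used the 8 libraries of their groups, and combined comparisons all 16. Exact permutation tests covered 70 splits, and correlations 100000 permutations (smallest p 1e-05). On simulated data, 83% of 200 genes changed by a log2 of 0.5 were called in Set A at the unadjusted threshold, with 4.92% of unchanged genes. The simulated noise was drawn separately for each gene and library, so it held no differences shared by the genes of a library. In the data 18.5% of all genes were called in Set A, so the simulated shares give no error rate for these libraries. All 8 genes are named, with Cdkn2a. Of each other list at most 4 genes of smallest p per comparison are named, with the 5 genes most like each profile. Individual values of 2 list genes are not reported here. The genes and lists were chosen with earlier results of these data known. Alternatives covered filters, pseudocounts, scaling, unit, variance model, libraries in the fit and leaving out each library.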

Additional observations from a re-analysis of the deposited data

Results flagged for a closer look

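Wfs1 was at 76.8 TPM in p16 KO CTL replicate 8, while the other 3 libraries of that group were at 33.3 to 36.5 TPM. The gap to the nearest of them was 0.927 of the range of the group, past Dixon's 95% critical value for 4 samples. It was the only such library among 32 groups of 4 (8 genes in 4 groups), of which chance marks about 1 in 20.

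In the main fit, the genotype by running interaction was flagged for Rgs14 and Fibcd1 by the unadjusted threshold alone. The interaction was -0.42 on the log2 scale for Rgs14 and -1.28 for Fibcd1, both called at the unadjusted threshold of 0.05, with an adjusted p = 0.797 by limma for each over 16 libraries. For Fibcd1 it was called in 5 of 16 fits that leave out 1 library and in 5 of 12 other settings. For Rgs14 it was called in 16 of 16 and 12 of 12. Those fits reuse the libraries from which the study picked Rgs14, so they are no independent evidence.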

How the results depend on the processing

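Of 529 alternative values of single log2 fold changes, 443 kept direction and call, 56 lost the call, 18 gained it with the sign unchanged and 12 changed sign. The value of Pcp4 in Set B with the CA1 covariate, called at 0.31, is counted only among those that changed sign. The 529 values cover a selection of gene and comparison pairs, not each of the 8 genes in all 8 comparisons. Those that changed sign belong to Wfs1, Fibcd1 and Pcp4. Without p16 KO CTL replicate 8, Set A became 0.063 for Wfs1, 0.031 for Fibcd1 and -0.085 for Pcp4, and Set B of Pcp4 became 0.18. Without p16 WT CTL replicate 3 or 4, Set B of Pcp4 was 0.039 or 0.023. Over all libraries left out in turn, Set A ranged from -0.43 to 0.063 for Wfs1, from -0.82 to 0.031 for Fibcd1 and from -0.085 to 0.28 for Pcp4, and Set B of Pcp4 from -0.19 to 0.18. With the other CA1 markers as a covariate, chosen after seeing the data, Set A was 0.22 for Wfs1, 0.14 for Fibcd1 and -0.16 for Pcp4, and Set B of Pcp4 was 0.31. Without the 3 libraries of high CA1 markers, also chosen afterwards, Pcp4 was -0.089 in Set A and 0.18 in Set B. The cause was not tested.

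The count of called genes, leaving out each library in turn, ranged from 1 to 3 in Set A (2 with all libraries), 1 to 2 in Set B (1), 0 to 2 in Set C (2), 1 to 2 in Set D (2), 1 to 3 in Set E (2) and 1 to 3 for the interaction (2), and stayed at 2 for running and 0 for genotype. The share of all genes called in those fits ranged from 11.7% to 27.4% in Set A, 3.22% to 17.5% in Set B, 3.07% to 5.88% in Set C and 6.53% to 11.2% in Set D. It was 2.81% to 6.05% in Set E, 3.57% to 13.7% for the interaction, 13.1% to 24.1% for running and 4.16% to 15.7% for genotype. With TPM as deposited the count of called genes was 1 in Set A, 0 in Set B and 1 for the interaction, where 18.5%, 6.43% and 5.28% of all genes were called. With no variance trend it was 1 in Set A (16% of all genes) and 1 for the interaction (5.23%), and with FPKM 1 for the interaction (5.37%). With all 16 libraries in one fit it was 1 in Set A (20.4% of all genes), 1 in Set C (5.64%), 1 in Set E (3%) and 2 in Set B (12.7%). With a mean of at least 1 TPM, which removes Map3k15, it was 1 in Sets C and D, for running and for the interaction, where 4.9%, 8.91%, 19.5% and 5.22% of all genes were called. With no filter it was 1 in Sets C, D and E and for the interaction, where 4.57%, 7.08%, 3.66% and 4.52% of all genes were called. With a pseudocount of 0.01 or quantile normalization it was 1 in Set D, where 8.55% or 9.11% of all genes were called. Without the libraries low in nuclear RNA, chosen afterwards, it was 3 in Set A (Fibcd1 gained), 2 in Set B and 4 for the interaction, where 8.49%, 6.68% and 7.25% of all genes were called. Without those of high CA1 markers it was 1 in Sets C and D and for the interaction, where 3.07%, 6.68% and 5.79% of all genes were called. In Set A that setting gained Amigo2 and lost Necab2. With the CA1 covariate the count was 3 in Set A (Amigo2 and Cacng5 gained, Necab2 lost), 2 in Set B and 2 in Set C (Pcp4 gained, Fibcd1 lost), where 21.4%, 7.96% and 8.3% of all genes were called. It was 1 in Set D, 3 in Set E (Cacng5 gained) and 1 for the interaction, where 12.3%, 5.76% and 7.06% of all genes were called. With quantile normalization Cacng5 took the place of Necab2 in Set A and of Map3k15 for running. Of the 28 pairs 0 passed adjustment without the 2 farthest libraries and within groups. Of the 5 genes most like the CA1 pair, 1 stayed among the first 5 without the 2 farthest libraries and 2 within groups, and of those most like the CA2 genes 1 and 1. No paired analysis was possible because the groups share no replicate numbers.

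Libraries are few and each pools 2 animals, TPM hold no read counts, and Map3k15 is near the level where low coverage limits the values.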

Other observations

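The values that follow are of genes chosen after their values were known, from lists of neighbouring tissue. Ntf3, a neurotrophin of granule and CA2 neurons, was at 4.09 TPM in p16 WT RUN replicate 10 and at 18.9 to 38.9 TPM in the other 15 libraries. Gpr151 and Tac2, both of the habenula, reached 7.14 and 19.9 TPM in p16 KO RUN replicate 14, the library with the second highest Wfs1, beside medians of 0.503 and 3.42 TPM. Of the 9 thalamus and habenula markers in their list, 4 had their highest level of the 16 libraries there. Others did not, such as Ramp3 at 4.40 TPM, below its median of 5.72 TPM. Ttr, the transthyretin of the choroid plexus, reached 191 TPM in p16 KO CTL replicate 7, beside a median of 18.3 TPM, and Wfs1 and Fibcd1 were at 33.3 and 10.3 TPM there.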
